A study of Drosophila melanogaster with 2 samples.

Results

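The mitochondrial ribosomal protein genes of Drosophila melanogaster (mRp genes) were examined in a chromatin immunoprecipitation sequencing (ChIP-seq) experiment on the homeodomain factor H2.0. The members were chosen by name, as protein-coding genes of the Ensembl annotation named mRpL or mRpS with a number, and they were 73 of 13968 protein-coding genes. Each member was then described by the peak summits within 500 bp of an own transcription start in the deposited thresholded peak lists, and the signal values and counts of that rule are given as descriptions, with no test. Of the members, 47 encode proteins of the large subunit (mRpL) and 26 of the small subunit (mRpS). The material came from embryos aged 0 to 24 h of the strain H2.0-GFP, which carries an insertion that targets H2.0 and makes an H2.0-eGFP fusion protein, and an antibody to GFP was used. There was 1 group of 2 biological replicates, both of whole embryos with the same transgene, so there was no second genotype, stage or treatment to compare, and the control library was not used here. A peak is therefore a site of signal in chromatin pooled from all tissues of the embryo, and binding by H2.0 was not shown.

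Mitochondria make the few proteins encoded in their own genome on ribosomes of their own. The RNA of these ribosomes comes from mitochondrial DNA, while their proteins are encoded in the nucleus, made in the cytosol and imported. Some of these proteins descend from ribosomal proteins of the bacterial ancestor, and others were added in the mitochondrial lineage. The products feed the oxidative phosphorylation complexes, so mitochondrial ribosomal proteins are needed in nearly every tissue. H2.0 is best known from the visceral mesoderm of the fly embryo.

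The sequence at 7 of the 9 strongest summits is shown because these windows are rich in A and T. Those of mRpL41, the strongest, and mRpL23, the fourth, are not printed. The window of mRpL41 holds AGATAA and no TTAATT, and that of mRpL23 holds both TATAAA and TTAATT. The windows are the 101 bases centred on the series-wide summit, read on the strand of the mRp gene from RefSeq's genome of build dm6, and they lie at chr2L:13835411-13835511 (minus strand) for mRpS23, chr3R:15229487-15229587 (plus strand) for mRpS10, chr2L:4945441-4945541 (minus strand) for mRpL24, chr3L:13018090-13018190 (minus strand) for mRpL20, chr2L:4850524-4850624 (minus strand) for mRpS2, chr3L:4364412-4364512 (plus strand) for mRpS6 and chr2L:10386457-10386557 (plus strand) for mRpS7. Capitals mark TTAATT on either strand, a 6-mer that was chosen after these windows had been seen.
mRpS23: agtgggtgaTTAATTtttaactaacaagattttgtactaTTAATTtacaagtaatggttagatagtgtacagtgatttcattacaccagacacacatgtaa
mRpS10: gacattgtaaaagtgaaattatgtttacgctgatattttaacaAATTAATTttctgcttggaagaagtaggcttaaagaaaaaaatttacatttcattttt
mRpL24: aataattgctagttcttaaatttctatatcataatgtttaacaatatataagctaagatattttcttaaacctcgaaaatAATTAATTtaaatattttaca
mRpL20: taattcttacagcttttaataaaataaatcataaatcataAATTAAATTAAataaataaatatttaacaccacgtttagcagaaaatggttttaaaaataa
mRpS2: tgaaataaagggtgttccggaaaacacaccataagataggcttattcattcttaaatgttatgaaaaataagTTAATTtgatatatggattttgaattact
mRpS6: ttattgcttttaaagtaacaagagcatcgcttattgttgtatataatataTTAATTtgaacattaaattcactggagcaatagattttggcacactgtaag
mRpS7: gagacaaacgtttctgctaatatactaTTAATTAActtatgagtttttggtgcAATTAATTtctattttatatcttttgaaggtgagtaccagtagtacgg

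The GC content was 28.7% at mRpS23, 23.8% at mRpS10, 16.8% at mRpL24, 15.8% at mRpL20, 26.7% at mRpS2, 27.7% at mRpS6 and 29.7% at mRpS7. Windows of 2 weaker members follow, with fixed motifs and not TTAATT in capitals. The mRpL4 window, at chr2L:16329197-16329297 (minus strand), holds the TATA box TATAAA once and TTTATG, the site class of the homeodomain factor Caudal, once on the other strand, and it holds TTAATT too, left in lower case. The mRpL16 window, at chrX:1890054-1890154 (plus strand), holds the homeodomain core TAATTA and the Myc E-box CACGTG.
mRpL4: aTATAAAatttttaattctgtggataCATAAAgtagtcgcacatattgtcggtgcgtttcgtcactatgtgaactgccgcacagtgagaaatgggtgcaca
mRpL16: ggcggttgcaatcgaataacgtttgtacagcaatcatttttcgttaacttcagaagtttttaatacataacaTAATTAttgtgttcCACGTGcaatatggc

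The series-wide thresholded list held 4590 peaks and the lists of replicates 1 and 2 held 3059 and 3124. In the series-wide list, 23 of 73 mRp genes (31.5%) had a summit within 500 bp of an own start, against 18.2% of all protein-coding genes. Replicate 1 gave 16 members (21.9%), against 12.8% of all protein-coding genes. Replicate 2 gave 22 members (30.1%), against 14.5%. The conservative form of the series-wide list gave 21 (28.8%), against 17.7%. A summit in the series-wide list and in both replicate lists was present at 15 members (20.5%), against 10.7% of all protein-coding genes, and a summit in any of these 3 lists at 26 (35.6%), against 19.3%. The members' share was above the background in each of these lists. Of 2 deposited series-wide lists of ranked peaks, most of them below the threshold, the one used here had a summit at 63 members (86.3%), against 80.8% of all protein-coding genes. At most members without a thresholded summit there was thus a ranked peak that missed the threshold, an irreproducible discovery rate (IDR) of 0.01.

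**Figure D1:**
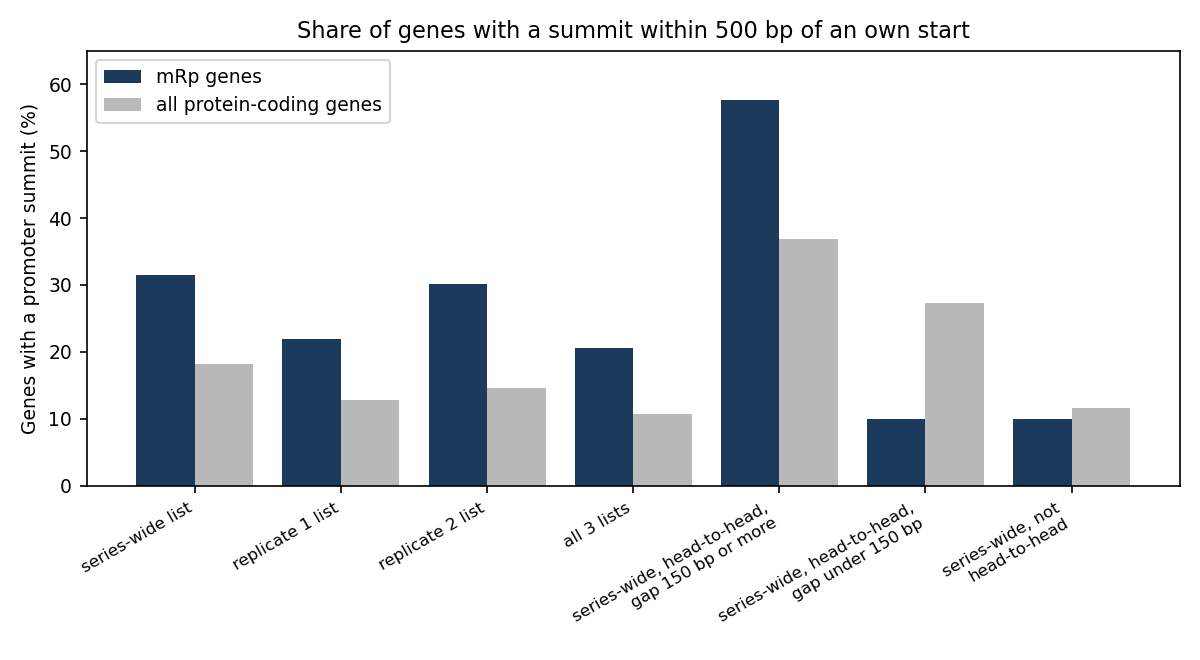
Percentage of genes (y axis) with a summit within 500 bp of an own start, for mRp genes (dark bars) and all protein-coding genes (grey bars), by peak list and, at the right, by the arrangement of the gene's start. The members' bars are higher in the 4 lists and for head-to-head genes with a gap of 150 bp or more (57.6%), and lower for gaps under 150 bp (10%).

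The signal value of a peak is the authors' enrichment value and is compared within a list. Over the 23 members with a series-wide summit, the highest value per gene lay between 51.2 and 1881. Its median was 115, and it was 112 over all 2546 protein-coding genes with such a summit. With the peaks of the list ranked into 4 equal classes of signal, 9 of the 23 members (39.1%) fell in class 1, the strongest, with values of 155 or more, 3 in class 2, 9 in class 3 and 2 in class 4. The same shares over all protein-coding genes with a summit were 35.0%, 25.1%, 23.6% and 16.2%. In class 2 the members' share was thus 13.0%, against 25.1%. It rests on 3 genes, and the difference was not tested.

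The 4 strongest members stood well apart from the rest. The highest was mRpL41 (FBgn0034001, peak at 2R, 15217611 to 15217900), a large-subunit protein outside the bacterial numbering, with 1881 in the series-wide list and 922 and 961 in replicates 1 and 2. It exceeded 99.9% of the peaks of the series-wide list, and its summit lay 133 bp upstream of the start. The summit of mRpS23 (FBgn0260407, peak at 2L, 13835330 to 13835602), a small-subunit protein outside the bacterial numbering, reached 1471, with 761 and 715 in the replicates. It lay 389 bp upstream of mRpS23 but 103 bp from the start of CenG1A, which encodes an Arf GTPase-activating protein, so it cannot be assigned to one of the genes. The summit of mRpS10 (FBgn0038307, peak at 3R, 15229400 to 15229663), a small-subunit protein with a bacterial counterpart, reached 1420.4, with 774 and 649 in the replicates. It lay midway in the gap, 128 bp upstream of mRpS10 and 129 bp from the start of the arginine methyltransferase gene Art3. The summit of mRpL23 (FBgn0035335, peak at 3L, 2373480 to 2373738), whose bacterial counterpart lies at the exit of the peptide tunnel, reached 1245, with 669 and 578 in the replicates. It lay in the 5′ UTR, 81 bp downstream of the nearest of 3 own starts. All 4 were high in both replicates.

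The next 6 members in order of signal all carried bacterial numbering, and their summits were in intergenic sequence. The large-subunit gene mRpL24 had 546 in the series-wide list and 248 and 298 in the replicates, with its summit 130 bp upstream. The large-subunit gene mRpL20, whose bacterial counterpart acts early in assembly of the subunit, had 486, with 255 and 231 in the replicates, 273 bp upstream. The small-subunit gene mRpS2 had 373, with 181 and 190 in the replicates, 155 bp upstream. These values agree closely between the replicates, within 0.27 on the log2 scale for each of the 3 genes. The small-subunit gene mRpS6 had 271, with 137 and 136 in the replicates, 88 bp upstream. The small-subunit gene mRpS7, whose bacterial counterpart helps to nucleate assembly of the subunit, had 159, with 106 in replicate 1 and 55.3 in replicate 2. Its log2 ratio of replicate 2 over replicate 1, -0.94, was the largest in size among the members. The large-subunit gene mRpL34 had 129, with 48.5 and 79.1 in the replicates, a log2 ratio of 0.71.

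Signal values were lower at the rest. The 5 weakest members with a summit in all 3 lists were mRpS24, mRpL53, mRpL4, mRpL21 and mRpS22. The series-wide value was 125 for mRpS24, with 54.3 and 73.6 in the replicates. It was 115 for mRpL53, with 55.3 and 55.6. For mRpL4, whose bacterial counterpart lines the peptide tunnel, it was 88.5, with 47.9 and 44.5. All of these summits lay upstream of the own start. The value was 82.6 for mRpL21, with 41.6 and 48.8 in the replicates. It was 71.6 for mRpS22, with 47.1 and 43.2, but the summits of the 2 replicates lay 172 bp apart there. At the other 14 members with a summit in all 3 lists this distance was at most 43 bp.

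Over these 15 members, the SD of the log2 ratio of replicate 2 over replicate 1 was 0.365, against 0.413 over the 1489 protein-coding genes with a summit in all 3 lists. By rank (Spearman), the values of the replicates correlated at 0.946 over the 15 members, against 0.845 over the 1489 genes. Both are descriptions of peaks that had passed the threshold in both replicates, which share an antibody and a strain, and the depth of the libraries is unknown.

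**Figure D2:**
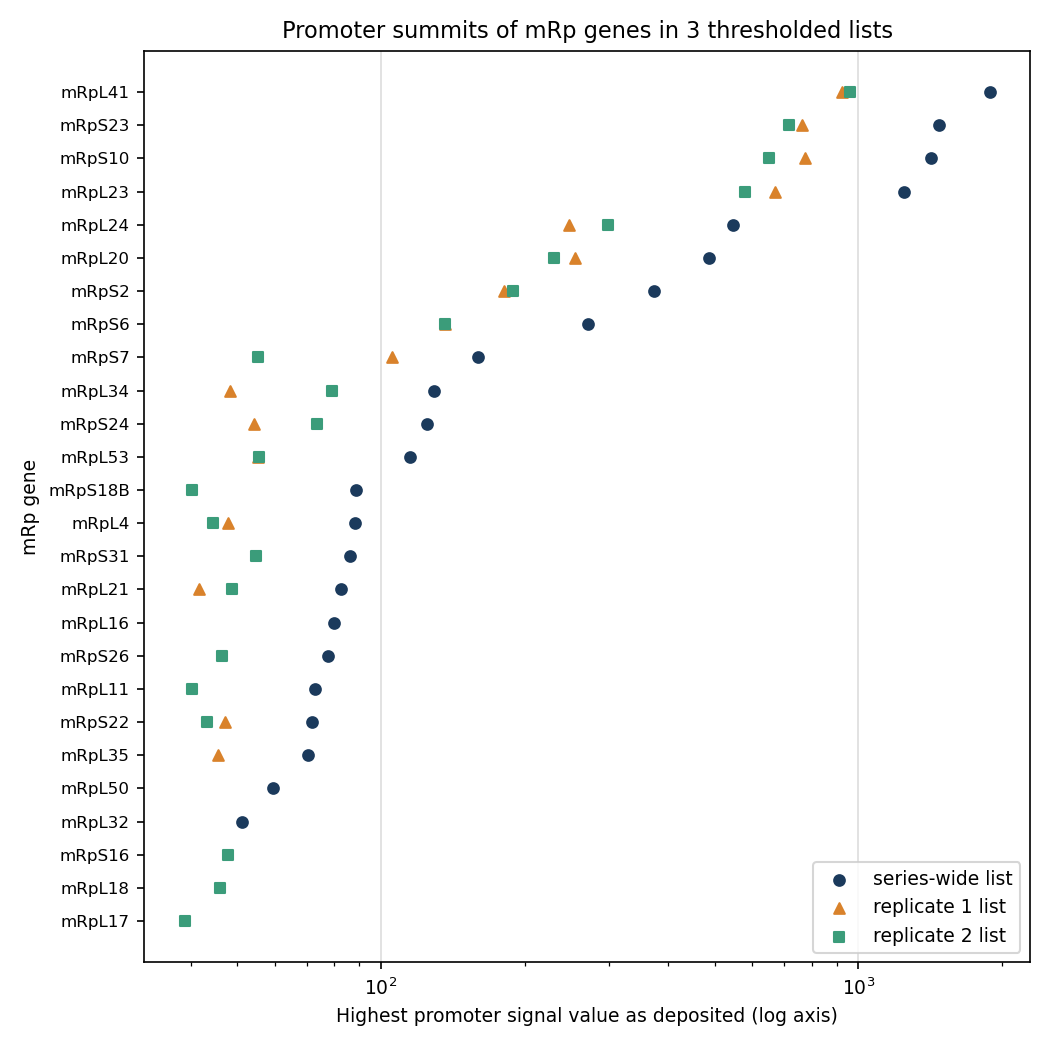
Highest promoter signal value (x axis, log scale, as deposited) of the 26 mRp genes with a summit in at least 1 of the series-wide, replicate 1 and replicate 2 lists (rows). The top 4 genes lie at 1245 or more in the series-wide list and at 578 or more in both replicates, and from mRpS18B down several genes lack a symbol for 1 or both replicates.

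Members present in only some of the lists reached at most 88.8. The small-subunit gene mRpS18B had 88.8 in the series-wide list and 40.3 in replicate 2. In replicate 1 it had 39.1 in the ranked list, at an IDR of 0.0141, just short of the threshold. The small-subunit gene mRpS31 had 86.4 and, in replicate 2, 54.7, mRpS26 had 77.6 and 46.5, and mRpL11, whose bacterial counterpart forms the base of the factor-binding stalk, had 72.7 and 40.3. Their highest ranked values in replicate 1 were 32.6, 35.8 and 27.0, at an IDR of 0.850, 0.829 and 0.536. The large-subunit gene mRpL35 had 70.5, with 45.6 in replicate 1 and no thresholded summit in replicate 2. In the series-wide list it was the only member with a second promoter summit, of 2.72, at 107 bp downstream, and in the conservative list mRpS26, mRpS22 and mRpL39 each had 2. The large-subunit genes mRpL16, mRpL50 and mRpL32 had 79.8, 59.5 and 51.2 in the series-wide list and passed in neither replicate alone. For mRpL16, near the peptidyl transferase centre in bacteria, replicate 1 held 46.4 in the ranked list at an IDR of 0.0114.

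The opposite case was also seen, in replicate 2 alone. The small-subunit gene mRpS16 had 47.9 there (IDR 0.00674) but 21.3 in the ranked list of replicate 1 (IDR 0.556) and 74.3 in the series-wide ranked list (IDR 0.0204). The large-subunit genes mRpL18 and mRpL17 had 46.1 and 38.9 in replicate 2, and no thresholded summit elsewhere. The large-subunit gene mRpL39 passed in the conservative list alone, with 53.4.

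Among the members without a thresholded promoter summit in the 3 lists, the 5 highest in the ranked series-wide list were mRpL37 (68.7, IDR 0.0604), mRpS29 (55.5, IDR 0.0142), mRpL45 (54.4, IDR 0.0686), mRpL39 (53.4, IDR 0.0130) and mRpL27 (51.4, IDR 0.746). The protein of mRpS29 is the GTP-binding member of the small subunit. These values overlap those of the weakest members that passed. At 10 members that list held no peak within 500 bp of an own start. Of these, 5 had a peak there in another ranked list, mRpL28 and mRpS9 in the other series-wide one (15.2 and 31.6), mRpS9 and mRpL43 in that of replicate 1 (25.9 and 11.2) and mRpS33, mRpS5 and mRpS9 in that of replicate 2 (8.79, 27.9 and 10.6). The lowest IDR among these was 0.0624, at mRpS5 in replicate 2. The other 5, mRpL13, mRpL15, mRpL38, mRpL40 and mRpS18C, had none in any of the 4 ranked lists.

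**Figure D3:**
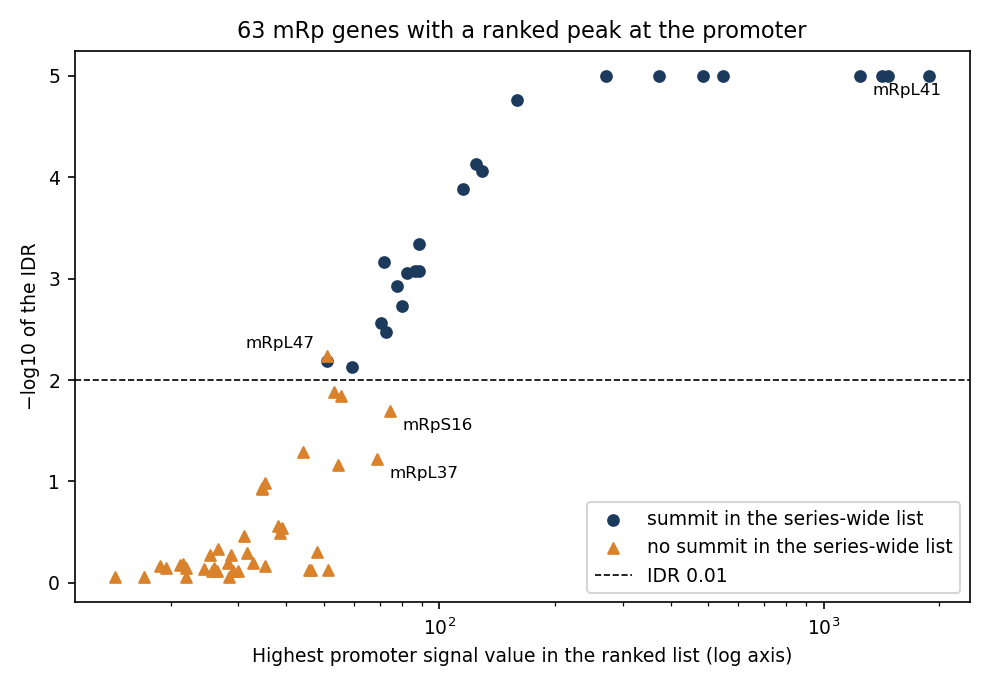
Highest promoter signal value in the ranked series-wide list (x axis, log scale) against −log10 of the IDR (y axis) for the 63 mRp genes with a ranked peak within 500 bp of an own start, with the threshold as a dashed line. Genes with a summit in the series-wide list (circles) lie above the line, and mRpL47, at 51.0 and an IDR of 0.00581, is the triangle above it.

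No highest summit of a member lay between 389 bp and 500 bp from an own start. Closest inside it were the summits of mRpS23 (389 bp), mRpS22 (331 bp) and mRpS24 (303 bp), all upstream. Closest outside it were those of mRpS25, 565 bp upstream with a signal value of 79.3, mRpL27, 1249 bp downstream, and mRpL55, 1261 bp downstream.

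Between the subunits, 10 of 26 small-subunit genes (38.5%) and 13 of 47 large-subunit genes (27.7%) had a series-wide promoter summit. Their median signal values were 142 and 88.5. Members with bacterial numbering (L1 to L36 and S2 to S21) had a summit in 15 of 42 cases (35.7%), and those with higher numbers, taken as specific to mitochondria, in 8 of 31 (25.8%). Within the higher numbers the subunits had 5 of 12 (small) and 3 of 19 (large), and within the bacterial numbers 5 of 14 (small) and 10 of 28 (large). These differences were not tested, and groups of this size are moved far by a few genes. On X, 1 of 11 members had a series-wide summit, mRpL16, against 16.9% of the protein-coding genes on X. None of the 11 had one in the list of either replicate, against 11.2% of the protein-coding genes on X in replicate 1 and 12.3% in replicate 2. On 2L, 6 of 12 members had a series-wide one, against 17.8% of the protein-coding genes there.

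The summits lay in front of the genes. Of 23 highest summits, 22 (95.7%) were upstream of the nearest own start, against 87.9% over all protein-coding genes with a summit. The median distance was 152 bp for the members and 137 bp for all. The exception was mRpL23, described above.

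Many mRp genes start back to back with another gene. A start of another gene on the opposite strand lay within 500 bp upstream of 53 of 73 members (72.6%), against 29.6% of all protein-coding genes. Of these 53 head-to-head members, 21 (39.6%) had a series-wide summit, against 33.8% of all head-to-head protein-coding genes. Of the 20 other members, 2 (10%), mRpL41 and mRpL4, had one, against 11.7% of all genes without such a neighbour. Weighting the background by the members' own arrangement, a step added after the data were seen, gave 27.7%, or 20.3 genes, against the observed 31.5%, or 23 genes. With genes split only into head-to-head and others, the members' share thus lay nearer to the background than the 31.5% and 18.2% over all. With the head-to-head genes split further by the gap between the starts, as given below, the members' shares lay on both sides of the background. They were 57.6% against 36.9% for gaps of 150 bp or more and 10% against 27.3% for gaps under 150 bp. A background weighted by this finer split was not computed.

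The gap between the paired starts was wider, by its median, at members with a summit than at those without. Its median was 328 bp (24 to 492 bp) over the 21 head-to-head members with a summit and 98 bp (20 to 499 bp) over the 32 without one. Over all head-to-head protein-coding genes, the medians were 259 bp with a summit and 228 bp without. With a gap of 150 bp or more, a value chosen after these medians were seen, 19 of 33 members (57.6%) had a summit, against 36.9% of all such protein-coding genes. With a gap under 150 bp, 2 of 20 members (10%) had one, against 27.3%. The members thus lay above the background for wide gaps and below it for narrow ones, which was not tested.

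Over head-to-head genes with a summit, the highest one was upstream of the own start in 95.2% of members and 89.5% of all protein-coding genes. Whether it lay between the paired starts was counted for the members only. Of the 21 highest summits in such pairs, 19 lay between the paired starts. That of mRpL23 lay beyond its own start and that of mRpL11 beyond the start of HtrA2, a mitochondrial protease gene, in whose 5′ UTR it stood. The partner genes have varied roles. They include the mitotic kinase gene Cdk1 with mRpS7, the dystroglycan gene Dg with mRpL34, the histone methyltransferase gene trr with mRpL16, the Argonaute gene AGO1 with mRpL53 and the AAA ATPase gene rept with mRpL21. Mitofilin, which shapes the inner mitochondrial membrane, is paired with mRpL35, and qless, of coenzyme Q synthesis, with mRpL32. Counting starts on either strand, 22 of the 23 highest summits (95.7%) also lay within 500 bp of another gene's start, 21 of them of a protein-coding gene, against 59.8% and 57.1% over all protein-coding genes with a summit. For 10 of these 22 summits the other start was the nearer one. The count of shared summits is tied to the arrangement given above. Of the 23 members 21 were head-to-head, against 1398 of the 2546 protein-coding genes with a summit. Only the summit of mRpL4 had no other start within 500 bp. With 250 bp as the distance, 11 of 17 summits were shared. Neither this count nor that of nearer other starts was made over all protein-coding genes, so no background is given for them. Signal at mRp promoters and at their partners cannot be told apart in these lists.

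**Figure D4:**
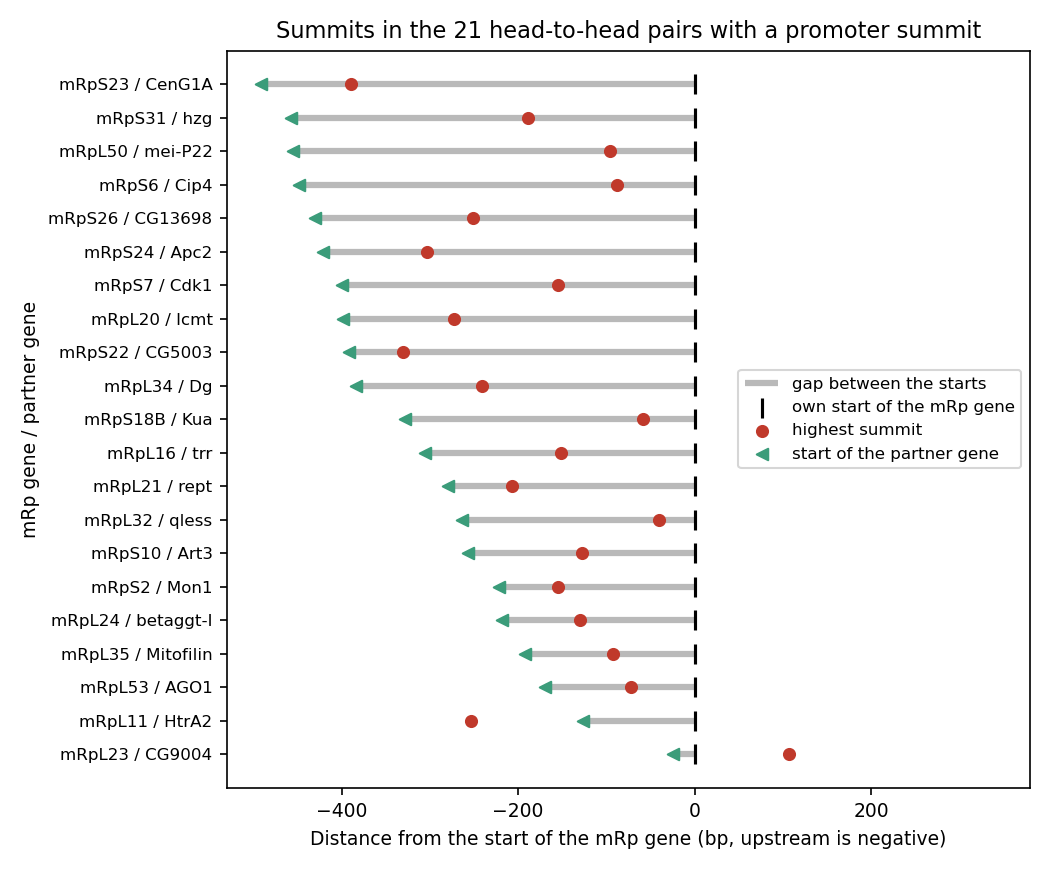
Place of the highest summit (circles) relative to the own start of the mRp gene at 0 (x axis, in bp) and the start of its partner (triangles) for the 21 head-to-head pairs with a summit, ordered by gap. In 19 rows the circle lies on the bar between the starts, and the exceptions are mRpL11 and mRpL23 at the bottom.

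Sequence features that the choice of members did not use were counted next. The 23 summit windows had a median GC content of 30.7%, against 33.7% over all 4565 series-wide summits on the chromosome arms. Promoters, taken from 250 bp before to 50 bp after the gene start, had 34.7% in mRp genes and 38.0% in all protein-coding genes. Among fixed motifs, searched on both strands, TAATTA stood in 4 of 23 summit windows (17.4%, at mRpL24, mRpS7, mRpS18B and mRpL16), against 9.24% of all summits. TATAAA stood in 7 (30.4%), against 21.3%. TTTATG stood in 2 (8.70%), against 12.5%, and AGATAA, the site of GATA factors, in 1 (4.35%), against 7.19%. GCATGCGC, the core of the site of the factor Ewg, stood in none, against 0.175%. No other fixed motif stood in more than 3 of the 23 windows. The 6-mer TTAATT, which can overlap TAATTA and was chosen after the windows had been seen, stood in 14 (60.9%), against 21.7% of all summits and 26.7% of those in class 1 by signal. The 8 strongest members after mRpL41 all held it. Since it was picked from these windows, its count is a description of them. In the promoters, which are longer windows, it stood in 45 of 73 members (61.6%), against 43.1% of all protein-coding genes. These were 16 of 23 members with a summit (69.6%) and 29 of 50 without one (58%).

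The motifs were also counted in the promoters, whose windows of 300 bp are longer than the summit windows of 101 bp. CAGCTG, the E-box that is known as a core promoter element of Drosophila, stood in 40 of 73 mRp promoters (54.8%), against 17.6% of all protein-coding promoters, 8.05% of 87 cytosolic ribosomal protein promoters and 23.9% of 88 promoters of nuclear genes for oxidative phosphorylation subunits. It stood at 12 of 23 members with a series-wide summit (52.2%) and at 28 of 50 without one (56.0%). It stood at 29 of 53 head-to-head members (54.7%), against 24.4% of all head-to-head genes, and at 11 of the 20 others (55.0%), against 14.8%. Of the 23 summit windows 2 held it (8.70%, against 3.99% of all summits), a share not comparable in size with that of the longer promoter windows. With 100 bp on both sides of the summit 7 held it, against 9.51% of all summits. In the promoters the site mostly stood at the start of the gene. The site nearest to the gene start lay at a median of 6 bp downstream in mRp genes and 43.5 bp upstream in all genes with one. In 35 of the 40 members (87.5%) it lay within 50 bp of the start, against 53.7% of all genes with one. The placement was similar in 6 of 7 cytosolic ribosomal protein genes with the site (85.7%, median 17 bp upstream). So it was in 17 of 21 oxidative phosphorylation subunit genes with one (81.0%, median 1 bp upstream). In the 12 members with both the site and a series-wide summit, the site nearest to the gene start lay a median of 130 bp from the summit. The site nearest to the summit was not measured and can be closer. For mRpL11 the distance was 251 bp, although its summit window holds CAGCTG too. At mRpS2 and mRpL24 a second site in the promoter lay nearer to the summit. CAGCTGTT on the strand of the gene, a longer form counted after the stretches around the site had been seen, stood in 23 of 73 mRp promoters (31.5%), against 4.51% of all.

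The stretches of 25 bases around this site are given for 6 members with a series-wide summit and 4 without one. CAGCTG is in capitals, and each stretch is read on the strand of the gene. They are examples and do not represent all sites. CAGCTGTT is more frequent among them than among the 40 mRp promoters with CAGCTG, where 23 hold it. The stretches of mRpS18B, mRpL45 and mRpL48, which lack it, are among those not printed. Those with a summit lie at chr3L:2373718-2373742 (minus strand) for mRpL23, chr2L:4945327-4945351 (minus strand) for mRpL24, chr2L:4850416-4850440 (minus strand) for mRpS2, chr3L:4364554-4364578 (plus strand) for mRpS6, chr3R:24163511-24163535 (minus strand) for mRpS24 and chr3L:19255070-19255094 (minus strand) for mRpL21. Those without lie at chr3R:9515876-9515900 (minus strand) for mRpL47, chr3R:19094877-19094901 (minus strand) for mRpL55, chrX:4322210-4322234 (minus strand) for mRpL33 and chr3L:264782-264806 (plus strand) for mRpL17. The third base of the site is 26 bp upstream of the gene start in mRpL23, 9 bp upstream in mRpS2, 21 bp upstream in mRpL21, 22 bp downstream in mRpL24 and in mRpS24, and 16 bp downstream in mRpS6.
mRpL23: ggttgacaatCAGCTGtttaaaaca
mRpL24: cagttctcaaCAGCTGattgcaagc
mRpS2: cactacccacCAGCTGtttaccaaa
mRpS6: ttccttgcatCAGCTGttaacacta
mRpS24: tcacgtcaatCAGCTGttgctggac
mRpL21: catgctaacaCAGCTGttcgaaaac
mRpL47: gttattgcttCAGCTGttttgttcg
mRpL55: gtcacactatCAGCTGcctggcagc
mRpL33: taggcgcagtCAGCTGttcttcgtt
mRpL17: aaatggtcgcCAGCTGttcggcgaa

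Other motifs of housekeeping promoters were counted in the same way. The DRE, TATCGATA, bound by the promoter factor DREF, stood in 15 of 73 mRp promoters (20.5%), against 9.36% of all. It stood in 6 of 23 members with a summit and 9 of 50 without, and the only summit window with it was that of mRpL32. CGATA, the core of the site of the insulator protein BEAF-32 and a part of the DRE, stood in 43 promoters (58.9%), against 47.3%. GGTCACACT, the core of the site of the pausing factor M1BP, stood in 8 (11.0%), against 6.04%. All 8 were among the 50 members without a summit (16%), and 0 of the 23 with one held it. Both groups are small for a motif that stood in 11.0% of mRp promoters. The split by summit was not counted over all promoters and was not tested. No summit window of a member held it, against 0.613% of all summits. GAGAG, the site of GAGA factor, stood in 12 promoters (16.4%), against 29.7% of all. CACGTG stood in 5 (6.85%), against 4.20%. TATAAA stood in 34 (46.6%), against 45.8%, and TAATTA in 15 (20.5%), against 20.4%. A match of letters is a description and does not show that the factor is bound.

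**Figure D5:**
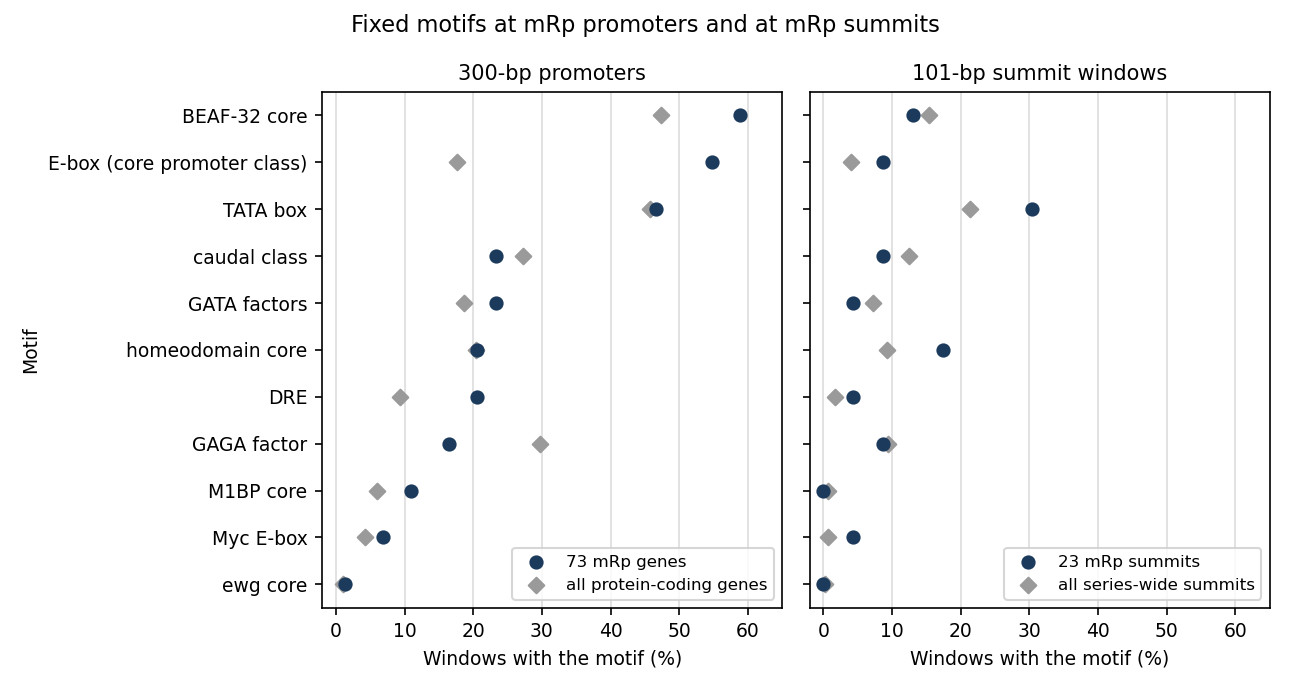
Percentage of windows with each fixed motif (x axis) in 300-bp promoters (left) and in 101-bp summit windows (right), for mRp genes (circles) and for all protein-coding promoters or all series-wide summits (diamonds). The E-box of core promoters stands at 54.8% of mRp promoters against 17.6% of all promoters. In the shorter summit windows it stands at 8.70% of mRp summits against 3.99% of all summits.

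Genes of the same pathway with other names were set beside the members. The mitochondrial ribosomal protein genes tko and bonsai had no thresholded promoter summit. Of 9 genes for mitochondrial translation factors 1 had one, waw, with 57.2. Of 16 genes for mitochondrial DNA and RNA factors 6 had one. The RNA-processing enzyme gene PNPase had 1353, with 696 and 665 in the replicates, and SLIRP2, of the family that stabilises mitochondrial transcripts, had 706, with 397 and 306. The single-stranded DNA-binding protein gene mtSSB had 259, with 135 and 127. Weaker values were those of SLIRP1 (108), PolG2 (74.5), the accessory subunit of the mitochondrial DNA polymerase, and PolrMT (52.0), the mitochondrial RNA polymerase. Of 15 genes for mitochondrial aminoacyl-tRNA synthetases 4 had a summit, with values from 64.9 to 87.5. Cytosolic ribosomal protein genes had one in 60 of 87 cases (69.0%), with a median signal value of 140.02 and a median distance of 44 bp, and oxidative phosphorylation subunit genes in 18 of 88 (20.5%), with medians of 102 and 114.5 bp. For the mRp genes the share was 31.5% and the medians were 115 and 152 bp. These lists were chosen with results of the data known, and the differences between them were not tested.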

How the data were processed

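Peak lists were used and no reads, so depth is unknown and no interval can be given. The authors deposited, in the narrowPeak layout, a signal value, an IDR-scaled score, −log10 of a q-value and a summit for each peak, on build dm6 per the labels; ranked lists also give −log10 of the IDR. Peak caller and aligner: not given in the sources used here. Fragments of 200 to 800 bp were taken, per the labels. Thresholded lists, per their deposited scores, start at 830. Coordinates were placed on the Ensembl annotation (BDGP6.54, release 115) and the RefSeq genome, whose arm lengths fit the lists, with Python 3.11.15, numpy 2.4.6 and pandas 2.3.3, and drawn with matplotlib 3.10.9. The highest summit per gene was used. The assignment was tested on simulated summits and returned all 152 of 152 planted within 500 bp. Named members were the 10 strongest and 5 weakest in all 3 lists, those in only some lists, those with 2 or more summits, the 5 strongest without a summit, those nearest 500 bp and those with DRE or GGTCACACT at the summit. Of 31 fixed symbols for other genes, 4 were not matched. Members, lists and alternatives were chosen with earlier results of these data known.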

Additional observations from a re-analysis of the deposited data

Results flagged for a closer look

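At mRpL47, a large-subunit gene, the ranked series-wide list held a promoter peak that the counts from thresholded lists left out. It was used only in the count of 63 members with a ranked peak and in the figure of that list. Its signal value was 51.0, its score 928 and its IDR 0.00581, which is past the score minimum of 830, and its summit lay 107 bp upstream of the start. The other series-wide ranked list held it with a score of 958 and an IDR of 0.00491. The peak is in neither the thresholded nor the conservative series-wide list. On the chromosome arms, 121 ranked peaks were left out in the same way, and why was not tested. The gene's highest promoter value below the threshold was 28.1 in replicate 1 (IDR 0.292) and 32.9 in replicate 2 (IDR 0.0175).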

How the results depend on the processing

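Of 63 alternatives over 18 counts and values, 46 left the value within its limit (1.5 times for a count), and 15 of the 17 that did not concern motif counts at the summits. Leaving out a replicate here means using the other replicate's list. The count of 23 members with a series-wide summit ranged from 16 to 22 that way and from 17 to 24 under the other alternatives, except for 12 when only signal at or above the median of the list counted. The 15 members in all 3 lists became 11 at 250 bp and stayed at 15 at 1000 bp and, in an alternative chosen after seeing the data, when the summits had to lie within 200 bp of each other. The 22 summits shared with another gene's start became 11 at 250 bp and 24 at 1000 bp. For 100 bp on both sides of the 23 summits, counts are given with the share of all series-wide summits in brackets. The counts were 2 for DRE (3.09%), 11 for CGATA (27.3%), 1 for GGTCACACT (1.40%) and 7 for CAGCTG (9.51%). Those for TTTATG and AGATAA, the GATA site, were 4 (22.3%) and 5 (12.4%). Without one or the other replicate, they ranged from 0 to 1 for DRE, 1 to 3 for CGATA, 0 to 0 for CACGTG, 0 to 2 for CAGCTG, 2 to 4 for TAATTA, 2 to 3 for AGATAA and 3 to 5 for TATAAA. Each of these rests on few windows, and the cause was not tested. No paired analysis was possible because there is 1 group.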
